A study of Mus musculus with 8 samples.

Results

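The genes of glucose breakdown, the pentose phosphate pathway and glycogen metabolism were followed in bone marrow (BM) monocytic cells. The set holds 38 genes named by symbol from textbook pathways, and all 38 had a row among the 16160 genes of the deposited count table. All 38 also passed the filter on low counts, which left 13211 genes for testing. The set was chosen with earlier results of these data known, so its shares of called genes are descriptions and not a test of the pathways.

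The series holds 8 RNA-seq libraries, 2 biological replicates of each of 4 groups. Cells gated as CD11c-CD11b+Ly6G-SiglecF-Ly6Chi were sorted by CD115, the receptor encoded by Csf1r, from BM of wild type C57BL/6 mice. The groups were CD115- (tCD115-) and CD115+ cells (tCD115+) of mice bearing EL4 tumors at day 21 after inoculation (EL4 TB mice), and CD115- (nCD115-) and CD115+ cells (nCD115+) of tumor-free naive mice. EL4 is a mouse lymphoma line, and the sources used here do not say whether mice were pooled for a library.

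Glycolysis splits glucose into pyruvate in the cytosol and yields ATP and NADH. Glucose enters through facilitative transporters, is trapped by hexokinase and is committed at phosphofructokinase-1, and pyruvate can then leave as lactate. The pentose phosphate pathway branches off at glucose 6-phosphate and provides NADPH, which the phagocyte oxidase consumes, and ribose. Glycogen is a glucose store, and neutrophils are known to hold glycogen and to rely on glycolysis.

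Libraries held 69692398 to 95353798 reads in genes. In the whole table, 47% of the genes called at adjusted p alone were the higher ones in tCD115- cells, against 30.4% when libraries were scaled by their totals alone, which moved the median of all genes by -0.14 on the log2 scale. The share was 78.5% for nCD115- over nCD115+, against 55.6% under that scaling, which moved the median by -0.11. Levels are in CPM, read counts scaled to a common library total with edgeR's TMM factors (trimmed mean of M-values). Csf1r was at 283 and 490 CPM in tCD115- and 891 and 869 CPM in tCD115+ libraries, and at 825 and 728 CPM in nCD115- and 1159 and 1333 CPM in nCD115+ libraries. It was lower in tCD115- cells (log2 fold change -1.19 ± 0.23, adjusted p = 0.00634, edgeR), and the difference in naive mice missed the threshold (-0.68 ± 0.22, adjusted p = 0.0805). Fold changes, standard errors (SE) and Benjamini-Hochberg adjusted p-values are from edgeR's quasi-likelihood test over all 8 libraries.

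The gene set took more of the reads in CD115- cells. It made up 1.73% and 1.57% of reads in tCD115- libraries, against 1.25% and 1.23% in tCD115+ libraries. In naive mice it was 1.297% and 1.40% in nCD115- libraries and 1.05% and 1.03% in nCD115+ libraries. Both CD115- libraries lay above both CD115+ libraries in each host.

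Between the subsets of EL4 TB mice, 10 of the 38 genes (26.3%) were at least 2-fold higher in tCD115- cells at adjusted p under 0.05, where 8.36% of all genes tested were. These were the transporter gene Slc2a3, the hexokinase gene Hk3, Gpi1, Pfkfb3, Pfkfb4, Tkt and the glycogen genes Pygl, Gys1, Gbe1 and Pgm2. At adjusted p under 0.05 with no fold limit, 22 genes were higher (57.9%, against 17.7% of all genes) and 5 were lower (13.2%, against 19.9%). The 5 lower genes were Slc2a1, Pfkl, Pfkm, Pfkp and Pdk1, none of which reached 2-fold, the threshold that 3.97% of all genes passed downward. The median log2 fold change was 0.39 over the set and -0.05 over all genes.

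Between the subsets of naive mice, 6 of these genes were at least 2-fold higher in nCD115- cells (15.8%, against 5.73% of all genes): Slc2a3, Hk3, Pfkfb3, Gys1, Gbe1 and Pgm2. With no fold limit, 19 were higher (50%, against 11.8%) and 1 was lower, Pfkm (2.63%, against 3.23%). Of all genes, 0.484% were at least 2-fold lower. All 19 higher genes were also among the 22 of EL4 TB mice, of which they made up 86.4%. Those called higher in EL4 TB mice only were Ldha, Pkm and Taldo1, and that difference between hosts did not pass its own test, given further on. The median log2 fold change was 0.39 over the set and -0.01 over all genes. The 2-fold counts ranged from 8 to 12 in EL4 TB and from 5 to 7 in naive mice when 1 library was left out. Pfkfb4, Tkt and Pygl fell under 2-fold with scaling by library totals alone, which left 7 in EL4 TB mice. With no fold limit, the 27 calls of EL4 TB mice and the 20 calls of naive mice also changed when 1 library was left out. Calls over all genes changed in the same fits, and the ranges of both are given further on.

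**Figure D1:**
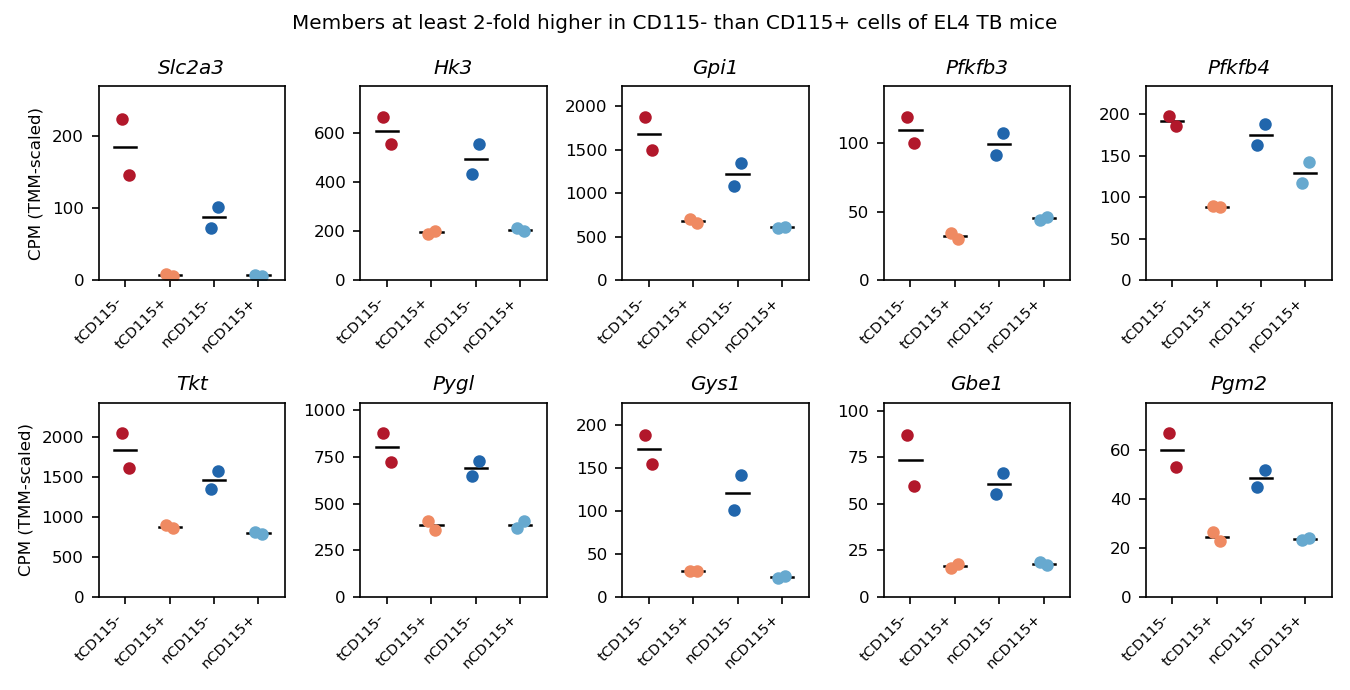
TMM-scaled CPM of the 10 genes that were at least 2-fold higher in tCD115- than in tCD115+ cells, 1 point per library and a bar at the mean of 2 libraries. In each panel both tCD115- points lie above both tCD115+ points, and Slc2a3 has the widest gap, at 224 and 146 CPM against 8.82 and 6.00 CPM. Of all 38 genes, 28 had both tCD115- libraries above and 7 had both below, and the share over all genes was not counted.

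Markers of other cells moved with the subset. Of 15 neutrophil and granule markers, 14 were at least 2-fold higher and 1 was lower in tCD115- cells, and 12 were at least 2-fold higher in nCD115- cells, each against the CD115+ cells of the same host. Their summed level was 117900 and 72520 CPM in tCD115- libraries against 3115 and 2563 CPM in tCD115+ libraries, and 50680 and 66060 CPM in nCD115- libraries against 1678 and 1462 CPM in nCD115+ libraries, with none of the 15 at 0 in any library. Summed monocyte markers ran the other way, at 5197 and 9200 CPM in tCD115- and 16470 and 15120 CPM in tCD115+ libraries, and at 12800 and 12310 CPM in nCD115- and 17010 and 20380 CPM in nCD115+ libraries. Of these 12 markers, 11 were lower in tCD115- cells at adjusted p under 0.05 by edgeR, 9 of them at least 2-fold. In nCD115- cells only 2 were called lower and 0 reached 2-fold. Of 11 T and NK cell markers tested, 10 were at least 2-fold higher in tCD115- cells, at a summed 120 and 91.0 CPM against 7.78 and 8.41 CPM in tCD115+ libraries, and 7 were higher in nCD115- cells, at 58.3 and 68.2 CPM against 10.97 and 9.11 CPM in nCD115+ libraries. Nkg7 alone gave 106 and 63.0 CPM of the sum in tCD115- libraries, and each of the other 10 markers was higher in replicate 2 than in replicate 1. Of 6 basophil and mast cell markers, 2 were higher in the CD115- cells of each host, namely Hdc and Ms4a2, while Mcpt8, Prss34, Cpa3 and Fcer1a had no call. The list summed to 158 and 123 CPM in tCD115- against 6.25 and 5.09 CPM in tCD115+ libraries, of which Hdc alone gave 150 and 118 CPM against 2.54 and 1.89 CPM. Erythroid, megakaryocyte, eosinophil and B cell markers each summed to at most 31.3 CPM in any library. Among them Siglecf (log2 fold changes of 2.62 and 2.49) and Gp1bb (5.93 and 7.16) were called higher in CD115- cells of both hosts. Gp9 was called higher in tCD115- cells (4.20), and no erythroid or B cell marker was called. Ly6g, of the neutrophil list, had 5.57 and 5.80. The proteins of Ly6g and Siglecf were gated out in the sort. All 22 genes called higher in tCD115- cells were also higher in tCD115- replicate 1, the library with more neutrophil marker reads, than in replicate 2. Of the 5 called lower, 1 was higher in replicate 1. In nCD115- cells, 17 of the 19 were higher in replicate 2, which had more neutrophil marker reads than replicate 1, and the 1 gene called lower was not. The share of all genes in this order was not counted, so these counts have no background to be set against. The part of these markers in the differences of the glucose genes was not tested, and in bulk RNA fewer cells of a type and less RNA per cell cannot be told apart.

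Of the 38 genes, the glucose transporter gene Slc2a3 had the largest subset difference in both hosts. Slc2a3 (gene ID 20527, chr6:122727809-122802363, mm10), which encodes the high-affinity transporter GLUT3, was at 224 and 146 CPM in tCD115- libraries against 8.82 and 6.00 CPM in tCD115+ libraries. In naive mice it was at 72.6 and 102 CPM in nCD115- libraries, set against 8.10 and 6.86 CPM in nCD115+ libraries. The CD115- libraries lay above all CD115+ libraries, and the CD115+ libraries of the hosts overlapped. The log2 fold change was 4.63 ± 0.30 (SE, adjusted p = 5.81e-05, edgeR) in EL4 TB and 3.55 ± 0.29 (adjusted p = 0.000219) in naive mice. Slc2a1, which encodes the widely expressed GLUT1, was at 34.8 and 40.5 CPM in tCD115- against 49.7 and 48.2 CPM in tCD115+ libraries, and at 37.5 and 35.9 CPM in nCD115- libraries, set against 39.1 and 40.5 CPM in nCD115+ libraries. It was lower in tCD115- cells by edgeR's test (log2 fold change -0.38 ± 0.09, adjusted p = 0.0137) and missed the threshold in naive mice (-0.12 ± 0.09, adjusted p = 0.391).

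Set against each other per length, the transporters changed rank between subsets. By the authors' FPKM values, Slc2a3 made up 80.7% and 70.1% of the summed FPKM of the pair in tCD115- libraries, against 10.3% and 7.46% in tCD115+ libraries. In nCD115- libraries it made up 55.7% and 64.9%, against 11.8% and 9.90% in nCD115+ libraries. Slc2a3 was thus the more abundant transcript in all 4 CD115- libraries and Slc2a1 in all 4 CD115+ libraries.

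Hexokinases catalyse the first step, the phosphorylation of glucose. Hk3 (gene ID 212032), the isoenzyme known from myeloid cells, was at 663 and 553 CPM in tCD115- against 189 and 202 CPM in tCD115+ libraries. It was at 431 and 553 CPM in nCD115- libraries, set against 213 and 199 CPM in nCD115+ libraries. The log2 fold change was 1.63 ± 0.14 (SE, adjusted p = 0.000187, edgeR) in EL4 TB and 1.26 ± 0.14 (adjusted p = 0.000923) in naive mice, and the libraries did not overlap. Hk1, which binds mitochondria, was at 167 and 155 CPM in tCD115- against 132 and 103 CPM in tCD115+ libraries, and at 128 and 193 CPM in nCD115- libraries, set against 125 and 103 CPM in nCD115+ libraries. Neither difference passed the test (log2 fold changes of 0.45 ± 0.20 and 0.50 ± 0.20, adjusted p = 0.117 and 0.139, edgeR). Hk2, the inducible isoenzyme, was at 124 and 147 CPM in tCD115- against 123 and 134 CPM in tCD115+ libraries, and at 166 and 178 CPM in nCD115- libraries, set against 172 and 184 CPM in nCD115+ libraries. Its libraries overlapped between the subsets of both hosts, with log2 fold changes of 0.08 ± 0.10 and -0.05 ± 0.10 (adjusted p = 0.594 and 0.768). Per length, Hk3 made up 76.8% and 72.9% of hexokinase FPKM in tCD115- against 52.2% and 56.3% in tCD115+ libraries, and 68.8% and 68.6% in nCD115- against 52.0% and 51.6% in nCD115+ libraries, so that it led in every library.

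**Figure D2:**
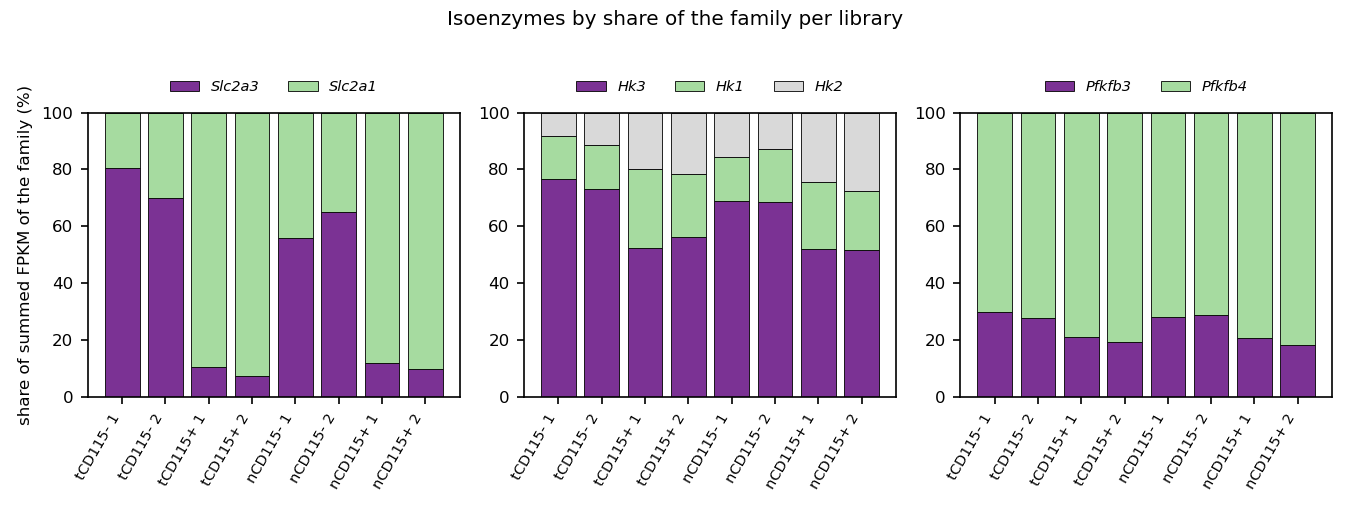
Share of each isoenzyme in the summed FPKM of its family, as stacked bars that add to 100%, 1 bar per library. Slc2a3 takes 55.7% to 80.7% of the pair in the 4 CD115- libraries and at most 11.8% in the 4 CD115+ libraries, while Hk3 and Pfkfb4 lead their families in all 8.

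The next steps split into genes that were higher and genes that were lower in CD115- cells. Gpi1 (gene ID 14751), the isomerase that turns glucose 6-phosphate into fructose 6-phosphate, was at 1876 and 1493 CPM in tCD115- against 711 and 655 CPM in tCD115+ libraries. It was at 1087 and 1346 CPM in nCD115- libraries, set against 600 and 617 CPM in nCD115+ libraries. The log2 fold change of Gpi1 was 1.303 ± 0.14 (SE, adjusted p = 0.000566, edgeR) in EL4 TB and 1.00 ± 0.14 (adjusted p = 0.00288) in naive mice, where it lay just under the 2-fold line. The phosphofructokinase-1 genes, which encode the committed step, went the other way. Pfkm averaged 5.80 ± 1.01 CPM in tCD115- and 10.01 ± 0.05 CPM in tCD115+ cells (SD, n = 2 each), Pfkp 89.9 ± 20.3 and 127 ± 12.3 CPM, and Pfkl 79.2 ± 2.49 and 95.7 ± 7.06 CPM. All 3 fell in tCD115- cells by edgeR's test, by 0.79, 0.50 and 0.27 on the log2 scale (adjusted p = 0.00514, 0.0304 and 0.0279). In naive mice the log2 fold changes were -0.51, -0.26 and -0.23, of which only that of Pfkm passed the test (adjusted p = 0.0489). Pfkm, the muscle-type subunit, was the scarcest of the 3 per length, at 4.29% to 8.06% of their summed FPKM over the 8 libraries.

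Pfkfb3 and Pfkfb4 encode bifunctional enzymes that make and break fructose 2,6-bisphosphate, the strongest activator of phosphofructokinase-1. Pfkfb3 (gene ID 170768) was at 119 and 100 CPM in tCD115- against 34.4 and 30.3 CPM in tCD115+ libraries, and at 91.1 and 107 CPM in nCD115- libraries, set against 44.2 and 46.4 CPM in nCD115+ libraries. For Pfkfb3 the log2 fold change was 1.76 ± 0.12 (SE, adjusted p = 7.83e-05, edgeR) in EL4 TB and 1.13 ± 0.12 (adjusted p = 0.000794) in naive mice. Pfkfb4 (gene ID 270198) was at 198 and 186 CPM in tCD115- against 89.2 and 88.4 CPM in tCD115+ libraries, and at 162 and 188 CPM in nCD115- libraries, set against 118 and 142 CPM in nCD115+ libraries. Its log2 fold change was 1.11 ± 0.11 (adjusted p = 0.000412, edgeR) and 0.43 ± 0.11 (adjusted p = 0.039). For both genes the CD115- libraries were all above the CD115+ libraries, and the lowest of the 8 values were those of tCD115+ cells. Per length, Pfkfb4 was the more abundant of the pair in every library. Pfkfb3 held 29.9% and 27.6% in tCD115- against 21.2% and 19.4% in tCD115+ libraries, and 28.1% and 28.8% in nCD115- against 20.6% and 18.4% in nCD115+ libraries.

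Aldolase splits the doubly phosphorylated sugar into trioses. Aldoa, the main aldolase gene, was higher in CD115- cells of both hosts (log2 fold changes of 0.30 ± 0.08 and 0.33 ± 0.08, adjusted p = 0.0261 and 0.0367, edgeR), and Aldoc stayed at 2.07 to 2.80 CPM with no call. Of the 5 genes of the payoff phase (Gapdh, Pgk1, Pgam1, Eno1 and Pkm), in which ATP and NADH are formed, Pkm was called in EL4 TB mice (0.26 ± 0.08, adjusted p = 0.0415) and the other fold changes lay between 0.08 and 0.37 over the 2 comparisons. Pkm, which encodes pyruvate kinase, had the highest FPKM of the 38 genes, at a mean of 822 over 8 libraries, followed by the enolase gene Eno1 at 655. Tpi1, the triose phosphate isomerase gene, had log2 fold changes of 0.29 and 0.33, and Bpgm, which diverts 1,3-bisphosphoglycerate to 2,3-bisphosphoglycerate, of -0.21 and -0.14, without a call. Eno1 shares sequence with the near-identical Eno1b, which had 2925 to 4195 reads per library, so reads may have been split between them.

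Genes for the fate of pyruvate moved apart. Lactate dehydrogenase is a tetramer of subunits from Ldha and Ldhb. Ldhb averaged 43.1 ± 5.49 CPM in tCD115- and 25.5 ± 0.06 CPM in tCD115+ cells, and 48.3 ± 5.72 CPM in nCD115- and 33.9 ± 2.08 CPM in nCD115+ cells (SD, n = 2 each). It was higher in CD115- cells of both hosts (0.76 ± 0.12 and 0.51 ± 0.12, adjusted p = 0.00283 and 0.0262, edgeR), as was the lactate exporter gene Slc16a3 (0.53 ± 0.08 and 0.39 ± 0.08, adjusted p = 0.00313 and 0.0219). Ldha was called in EL4 TB mice (0.45 ± 0.12, adjusted p = 0.0211) and stood at 0.43 ± 0.12 in naive mice (adjusted p = 0.0502). Pdk1, whose kinase shuts pyruvate dehydrogenase, was lower in tCD115- cells (-0.50 ± 0.11, adjusted p = 0.0108, edgeR), at 13.6 ± 0.21 CPM against 19.2 ± 0.15 CPM in tCD115+ cells (SD, n = 2 each). Pdha1, a subunit of that dehydrogenase, and the monocarboxylate transporter gene Slc16a1 had subset log2 fold changes between -0.16 and 0.07.

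All 7 pentose phosphate genes were higher in tCD115- than in tCD115+ cells by edgeR's test, and 6 of the 7 were higher in nCD115- than in nCD115+ cells, the exception being Taldo1 (0.27 ± 0.08, adjusted p = 0.0575). Tkt (gene ID 21881), the transketolase gene, was at 2048 and 1611 CPM in tCD115- against 902 and 857 CPM in tCD115+ libraries, and at 1354 and 1577 CPM in nCD115- libraries, set against 809 and 788 CPM in nCD115+ libraries. For Tkt the log2 fold change was 1.06 ± 0.13 (SE, adjusted p = 0.000982, edgeR) in EL4 TB and 0.88 ± 0.13 (adjusted p = 0.00368) in naive mice, and the 2-fold call was lost without tCD115- replicate 1, at 8 such genes in place of 10. G6pdx, which encodes the enzyme of the first NADPH-yielding step, averaged 977 ± 89.6 CPM in tCD115- and 555 ± 11.7 CPM in tCD115+ cells (SD, n = 2 each), a log2 fold change of 0.82 ± 0.10. Pgd, the second NADPH-yielding enzyme, had 0.56 and 0.50 in the 2 hosts, Rpia 0.85 and 0.86, and Rpe 0.78 and 0.81. Rpia and Rpe encode the isomerase and the epimerase of ribulose 5-phosphate. Pgls, the lactonase gene, had 0.47 and 0.40, but 20.6% of its annotated exon bases overlap exons of Fam129c on the same strand, so that its count is uncertain. The same holds for Pkm, with 15.3% of exon bases shared with Gm49759, and for Pfkm, with 10.2% shared with Gm26513.

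All 5 glycogen genes were higher in CD115- cells of both hosts by edgeR's test, with 4 at least 2-fold higher in EL4 TB and 3 in naive mice. Gys1 (gene ID 14936), the glycogen synthase of tissues other than liver, was at 189 and 155 CPM in tCD115- against 30.6 and 30.1 CPM in tCD115+ libraries, and at 102 and 142 CPM in nCD115- libraries, set against 21.9 and 23.9 CPM in nCD115+ libraries. Gys1 thus had a log2 fold change of 2.50 ± 0.17 (SE, adjusted p = 6.48e-05, edgeR) in EL4 TB and 2.41 ± 0.17 (adjusted p = 0.000107) in naive mice. Gbe1 (gene ID 74185), the branching enzyme, was at 87.3 and 59.4 CPM in tCD115- against 15.7 and 17.6 CPM in tCD115+ libraries, and at 55.1 and 66.7 CPM in nCD115- libraries, set against 18.7 and 17.1 CPM in nCD115+ libraries. Its log2 fold change was 2.14 ± 0.19 (adjusted p = 0.000214, edgeR) and 1.76 ± 0.19 (adjusted p = 0.000734). Both genes build the store, and for both every CD115- library lay above every CD115+ library.

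Pygl (gene ID 110095), the glycogen phosphorylase named for liver, was at 881 and 726 CPM in tCD115- against 410 and 358 CPM in tCD115+ libraries, and at 647 and 731 CPM in nCD115- libraries, set against 369 and 407 CPM in nCD115+ libraries. Its log2 fold change was 1.06 ± 0.13 (adjusted p = 0.000837, edgeR) and 0.83 ± 0.12 (adjusted p = 0.00423), and the 2-fold call in EL4 TB mice was lost without tCD115- replicate 1 or without tCD115+ replicate 2. The gene deposited as Pgm2 (gene ID 72157, chr4:99929451-99987294) carries the symbol Pgm1 in a newer RefSeq annotation and encodes a phosphoglucomutase, which links glucose 1-phosphate and glucose 6-phosphate. It was at 66.9 and 53.2 CPM in tCD115- against 26.4 and 22.7 CPM in tCD115+ libraries, and at 44.9 and 52.0 CPM in nCD115- libraries, set against 23.2 and 24.2 CPM in nCD115+ libraries. Its log2 fold change was 1.29 ± 0.14 (adjusted p = 0.000499, edgeR) and 1.03 ± 0.13 (adjusted p = 0.00214), and the 2-fold call in naive mice was lost without nCD115- replicate 2 and with scaling by library totals alone (0.92 in both). Ugp2, which makes UDP-glucose, rose the least of the 5, with 0.33 ± 0.09 (adjusted p = 0.0276) and 0.45 ± 0.09 (adjusted p = 0.0184).

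The bases before the annotated start of 3 genes are shown because in EL4 TB mice these had the largest subset differences after Slc2a3, which has no entry in the promoter table. They are from RefSeq on GRCm38.p6, the build of mm10, 250 bases each, 5′ to 3′ on the gene's strand, and capitals mark the core of the hypoxia response element, ACGTG or GCGTG, on either strand. Gys1 lies at chr7:45434589-45434838 (plus strand), Gbe1 at chr16:70313699-70313948 (plus strand) and the first of 2 Pfkfb3 windows at chr2:11553930-11554179 (minus strand). The Pfkfb3 gene is annotated at chr2:11471430-11554071, so the start used for this window is an internal one. The marked core therefore lies within the annotated gene.
Gys1: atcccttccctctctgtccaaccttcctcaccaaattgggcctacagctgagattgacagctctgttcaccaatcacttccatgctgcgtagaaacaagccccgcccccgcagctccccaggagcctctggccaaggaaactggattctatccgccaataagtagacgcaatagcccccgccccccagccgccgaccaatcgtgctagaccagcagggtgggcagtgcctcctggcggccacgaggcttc
Gbe1: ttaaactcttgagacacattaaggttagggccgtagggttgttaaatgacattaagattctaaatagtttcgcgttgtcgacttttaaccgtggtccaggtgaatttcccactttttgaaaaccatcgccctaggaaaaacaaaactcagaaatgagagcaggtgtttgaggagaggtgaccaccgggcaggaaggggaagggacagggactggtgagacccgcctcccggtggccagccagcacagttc
Pfkfb3: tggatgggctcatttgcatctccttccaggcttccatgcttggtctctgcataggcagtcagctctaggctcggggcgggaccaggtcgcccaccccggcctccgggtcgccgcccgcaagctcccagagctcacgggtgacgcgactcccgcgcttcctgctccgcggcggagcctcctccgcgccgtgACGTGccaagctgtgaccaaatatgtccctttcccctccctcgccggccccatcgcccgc

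Of these windows, only that of Pfkfb3 held the core, once, and its other window held it 3 times. Of the 38 genes, 37 had an entry, with 52 windows in all, and 39 windows (75%) held the core, against 38.6% of 32851 promoter windows of the same length. The E-box CACGTG, which contains the core ACGTG on both strands, was in 4 of the 52 windows (7.69%, against 6.02%) and the C/EBP-type motif TTGCNNAA in 5 (9.62%, against 9.56%), both strands searched. A match is a description of these letters and not of binding, and base composition was not matched. Some genes had several windows, and those of Eno1, Aldoa and Pfkm partly overlap, so that the same core can be counted more than once. The 32851 windows were not limited to the genes tested here.

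The host comparisons set EL4 TB against naive mice within each subset. In tCD115- against nCD115- cells, 11 of the 38 genes were higher at adjusted p under 0.05 (28.9%, against 3.19% of all genes), while 6.49% of all genes and none of these were lower. Only Slc2a3 was at least 2-fold higher, a threshold that 0.855% of all genes passed upward and 2.43% downward. In tCD115+ against nCD115+ cells, 10 were higher (26.3%, against 6.09%) and 3 were lower (7.89%, against 4.2%). By edgeR none of the 38 reached 2-fold in that comparison, where 0.939% of all genes were higher and 1.66% lower. An unadjusted p under 0.05 by edgeR's test was found for 19 of the 38 and for 3875 of all 13211 genes. DESeq2 also called none at 2-fold and limma-voom called 1, Slc16a1, at 1.01. The median log2 fold change of the set was 0.27 in CD115- and 0.21 in CD115+ cells, against 0.00 and 0.02 over all genes.

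These host calls depended on which libraries were fitted. Every one of them was lost in at least 1 of the fits that left out a library. For many genes this was so even where that library lay outside the comparison. Calls over all genes changed in these fits as well, as given further on, and each such fit had a single library in 1 group. Over the 16 alternatives the log2 fold change of Gapdh lay between 0.45 and 0.65 in CD115- cells and between 0.60 and 0.66 in CD115+ cells. That of Slc2a3 lay between 0.74 and 1.36 in CD115- cells. A fit of only the 4 CD115- libraries called none of the 38 and 40 of all genes, where all 8 libraries gave 1280 of all genes. One of only the 4 CD115+ libraries called 21 of the 38 and 3790 of all genes, where all 8 libraries gave 1359 of all genes. No called gene changed direction under any of these settings. Cell cycle genes moved with the host too: of 14, 5 were higher in tCD115- than in nCD115- and 9 in tCD115+ than in nCD115+ cells, at a summed 6307 and 5894 CPM against 4318 and 4773 CPM, and 5047 and 5308 CPM against 3769 and 3452 CPM. Other marker lists moved with the host as well. Of 15 neutrophil markers, 4 were higher in tCD115- than in nCD115- cells and 5 in tCD115+ than in nCD115+ cells. Of 12 monocyte markers, 5 were lower in CD115- cells of EL4 TB mice, among them Cx3cr1 (-2.19), Cd74 (-1.61) and Csf1r (-1.01), and 2 were lower in CD115+ cells. Of 10 B cell markers, 4 were lower in EL4 TB mice in each subset, and of 11 T and NK cell markers 1 was higher in CD115- and 3 were lower in CD115+ cells. Of 6 basophil and mast cell markers, 1 was lower in each subset. The part of these lists in the host differences was not tested.

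The genes called in both subsets were Pfkl, Aldoa, Tpi1, Gapdh, Pgk1, Pgam1, Ldha and Slc16a1, 72.7% of the 11 and 80% of the 10. Slc16a1, which encodes the monocarboxylate transporter MCT1, changed the most of these. It was at 26.6 and 20.2 CPM in tCD115- against 13.3 and 12.0 CPM in nCD115- libraries, and at 24.1 and 23.7 CPM in tCD115+ against 13.9 and 10.2 CPM in nCD115+ libraries. The log2 fold change was 0.89 ± 0.18 (SE, adjusted p = 0.0289, edgeR) and 0.99 ± 0.18 (adjusted p = 0.0215), and every EL4 TB library lay above every naive one. Ldha was at 705 and 548 CPM in tCD115- against 393 and 406 CPM in nCD115- libraries, and at 453 and 462 CPM in tCD115+ against 308 and 286 CPM in nCD115+ libraries (0.65 ± 0.12 and 0.62 ± 0.12, adjusted p = 0.0227 and 0.0243, edgeR).

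Gapdh, the gene of the NADH-yielding step that is often used as a reference, averaged 861 ± 84.0 CPM in tCD115- and 585 ± 10.5 CPM in nCD115- cells, and 765 ± 22.8 CPM in tCD115+ and 493 ± 9.38 CPM in nCD115+ cells (SD, n = 2 each). Its log2 fold changes of 0.56 ± 0.09 and 0.63 ± 0.09 passed edgeR's test (adjusted p = 0.016 and 0.0115). Pgk1, the phosphoglycerate kinase gene, had 0.51 and 0.63, Pgam1, the mutase gene, 0.39 and 0.42, Aldoa 0.37 and 0.40, Tpi1 0.43 and 0.46, and Pfkl, the liver-type phosphofructokinase subunit, 0.46 and 0.50. Eno1 and Pkm were called in CD115+ cells (0.36 and 0.33, adjusted p = 0.0253 and 0.0471, edgeR) and stood at 0.26 and 0.30 in CD115- cells (adjusted p = 0.0541 and 0.0631). Genes of the same stretch did not all rise with the host. Ldhb had -0.16 and -0.41, Bpgm -0.14 and -0.07 and Aldoc 0.02 and 0.21, in CD115- and CD115+ cells and without a call. The 8 other genes from Aldoa to Ldha, a grouping made after their values were seen, lay between 0.26 and 0.65 in CD115- and between 0.33 and 0.63 in CD115+ cells.

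**Figure D3:**
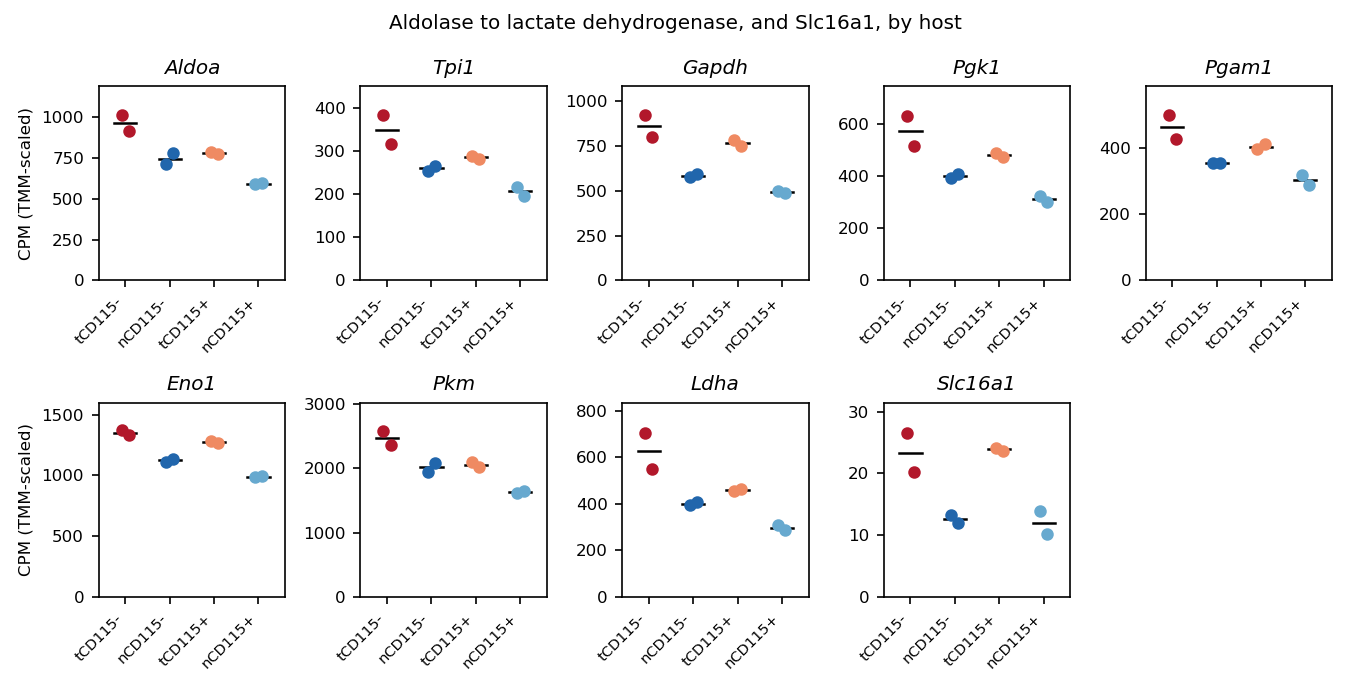
TMM-scaled CPM of 8 genes from Aldoa to Ldha, chosen after their values were seen and without Aldoc, Bpgm and Ldhb, and of Slc16a1, 1 point per library and a bar at the mean of 2 libraries, with EL4 TB next to naive within each subset. In all 9 panels both EL4 TB points lie above both naive points of the same subset, as for Gapdh with means of 861 against 585 CPM in CD115- and 765 against 493 CPM in CD115+ cells. Of all 38 genes, 19 were so placed in CD115- and 24 in CD115+ cells, while 3 and 6 had both EL4 TB libraries below. The share over all genes was not counted.

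Some genes were called in 1 subset only. In tCD115- against nCD115- cells these were Slc2a3 (1.08 ± 0.26, adjusted p = 0.0426, edgeR), G6pdx (0.57 ± 0.10, adjusted p = 0.0223) and Slc16a3 (0.36 ± 0.08, adjusted p = 0.0402). The Slc2a3 call was lost in 10 of 16 other settings, with fold changes from 0.74 to 1.36, among them without either nCD115- library and without tCD115- replicate 1. In tCD115+ against nCD115+ cells Hk2, Pfkfb3 and Pfkfb4 were lower (-0.47 ± 0.10, -0.48 ± 0.12 and -0.55 ± 0.11, adjusted p = 0.0328, 0.0456 and 0.0278, edgeR). Hk2 averaged 128 ± 7.92 CPM in tCD115+ and 178 ± 8.47 CPM in nCD115+ cells (SD, n = 2 each). In CD115- cells Hk2 stood at -0.35 ± 0.10 (adjusted p = 0.0693).

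Whether the host changed the subset difference was tested as an interaction. By edgeR 0 of 13211 genes (0%) passed, with a smallest adjusted p of 0.0805, and 751 genes and 4 of the 38 had an unadjusted p under 0.05. The 4 were Pfkfb4 (0.68 ± 0.16), Pfkfb3 (0.62 ± 0.17), Slc2a3 (1.09 ± 0.37) and G6pdx (0.35 ± 0.15), with adjusted p-values of 0.557 to 0.841. DESeq2 called 89 genes, of which Pfkfb4 (0.74) was 1 of the 38, and limma-voom called none. Without tCD115- replicate 2, edgeR called 635 genes, among them Pfkfb3 (0.74) and Pfkfb4 (0.72).

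**Figure D4:**
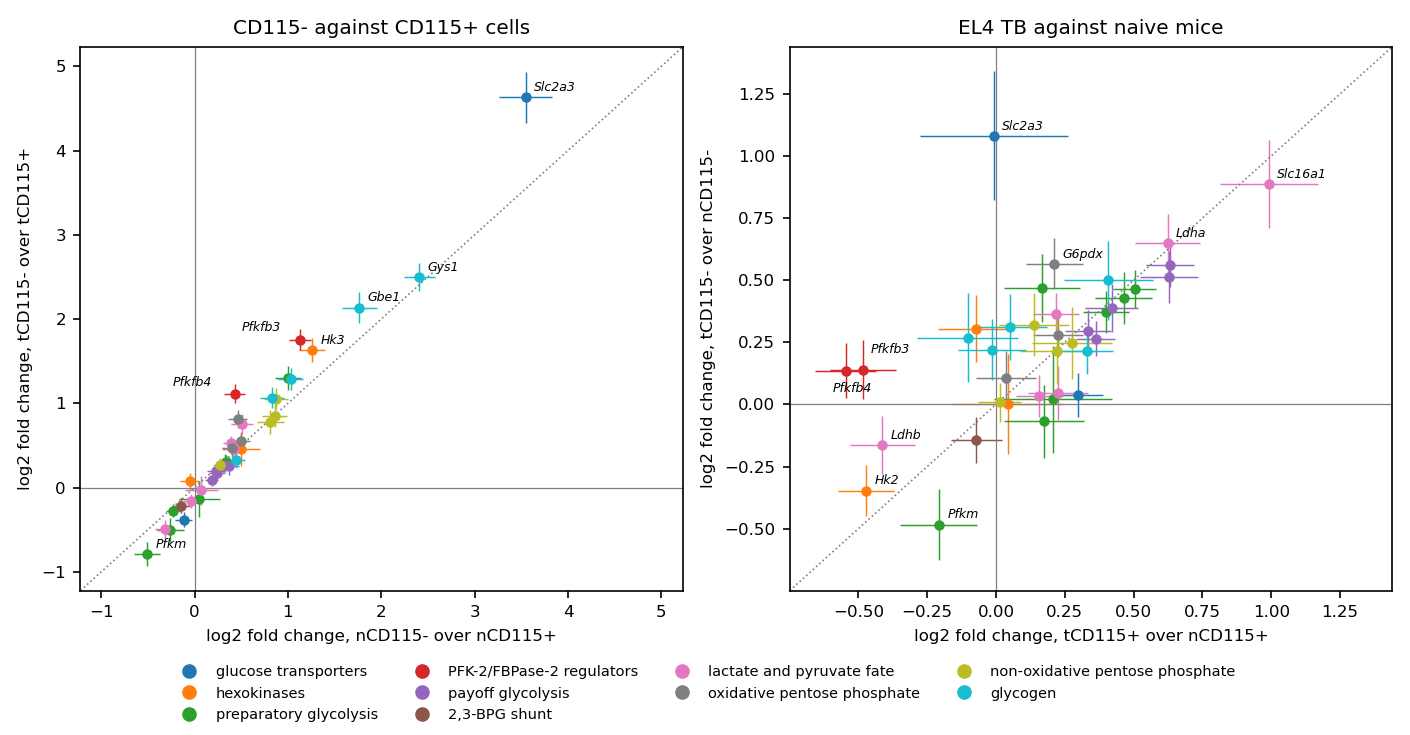
Log2 fold change of each of the 38 genes with its SE, for CD115- over CD115+ cells of EL4 TB (vertical) and naive mice (horizontal) on the left, and for EL4 TB over naive mice in CD115- (vertical) and CD115+ cells (horizontal) on the right, where colours are the steps of the pathway and the dotted line marks equal changes. On the left Slc2a3, Gys1 and Gbe1 stand farthest out at 4.63, 2.50 and 2.14 on the vertical axis, and on the right Slc16a1 lies near the line at 0.89 and 0.99 while Slc2a3 lies above it at 1.08 and -0.01.

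Calls were also counted by step of the pathway at adjusted p under 0.05. The steps given first had most of their calls in a single kind of comparison, and the other steps, which were more mixed, follow. Between the subsets of EL4 TB mice, where 17.7% of all genes were called higher, 5 of 5 glycogen genes, 7 of 7 pentose phosphate genes and 1 of the 5 genes from Gapdh to Pkm were higher. Between hosts in CD115- cells, where 3.19% of all genes were called higher, these counts were 0, 1 (G6pdx) and 3. In CD115+ cells, where 6.09% were, they were 0, 0 and 5. Between the subsets of EL4 TB mice, the 7 genes from Gpi1 to Tpi1 had 2 higher and 3 lower calls. By host they had 3 higher in each subset. The 6 genes for the fate of pyruvate had 3 higher and 1 lower. By host, 3 of these were higher in CD115- and 2 in CD115+ cells. Slc2a3 was higher by subset and by host in CD115- cells, and Slc2a1 lower by subset. Hk3, Pfkfb3 and Pfkfb4 were higher by subset, and Hk2, Pfkfb3 and Pfkfb4 lower by host in CD115+ cells. Bpgm had no call. Several genes were called in both kinds of comparison, among them Aldoa, Ldha and Pfkl, of which Pfkl was lower in tCD115- than in tCD115+ cells and higher in EL4 TB than in naive mice. The host log2 fold changes of the glycogen genes in CD115+ cells lay between -0.10 and 0.41, of which that of Gys1 was the highest. This is a count of calls, and the steps were not tested against each other.

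**Figure D5:**
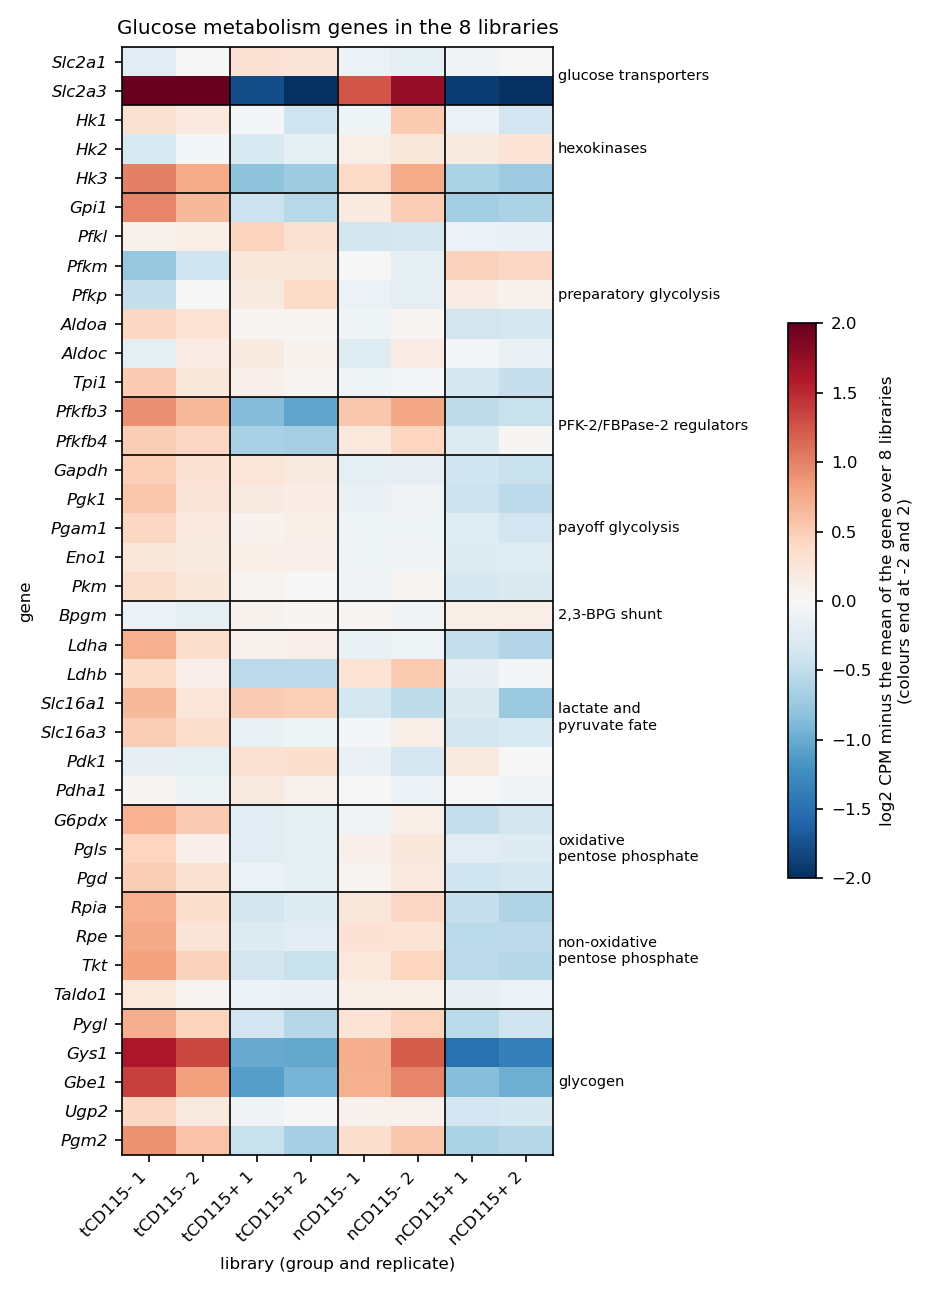
Log2 CPM of each gene minus its mean over the 8 libraries, with genes as rows in pathway order and libraries as columns, where red is above and blue below the gene's mean and colours end at -2 and 2. Slc2a3 and the glycogen rows other than Ugp2 are red in CD115- and blue in CD115+ columns, as for Gys1 with 189 and 155 CPM in tCD115- against 30.6 and 30.1 CPM in tCD115+ libraries, whereas the rows from Gapdh to Pkm are darkest blue in nCD115+ columns.

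Other genes of these pathways came from lists of 119 genes, of which 105 had a row and 93 were tested. At adjusted p under 0.05, tCD115- against tCD115+ cells gave 21 of the 93 as higher and 24 as lower, and nCD115- against nCD115+ cells gave 19 and 8. Of all genes tested, 17.7% were higher and 19.9% lower in the first comparison, and 11.8% and 3.23% in the second. These shares also apply to the lists that follow. Among 10 further isoenzymes tested, 3 were higher and 1 lower in CD115- cells of both hosts. Adpgk, which encodes an ADP-dependent glucokinase, was at 1069 and 780 CPM in tCD115- against 50.3 and 47.9 CPM in tCD115+ libraries, and at 501 and 685 CPM in nCD115- libraries, set against 43.2 and 42.8 CPM in nCD115+ libraries (4.24 ± 0.20 and 3.79 ± 0.20, adjusted p = 1.8e-05 and 3.13e-05, edgeR). Pfkfb1, a relative of Pfkfb3, had 0.88 and 1.10, and the muscle enolase gene Eno3 -0.60 and -0.61.

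Among 8 other sugar and lactate transport genes, 5 were lower in tCD115- than in tCD115+ cells by edgeR's test and 2 in nCD115- than in nCD115+ cells. Of all genes, 19.9% and 3.23% were lower. Emb, which encodes a partner of monocarboxylate transporters, had -0.97 and -0.48 and the transporter gene Slc2a8 -0.92 and -0.56, while Slc2a6 had -0.87 in EL4 TB mice. Among 11 genes of pyruvate entry and pyruvate dehydrogenase, 2 were higher and 1 lower in tCD115- cells, and 1 was higher and 1 lower in nCD115- cells. The kinase genes Pdk3 and Pdk2 went opposite ways, with 1.23 and 0.84 for Pdk3 and -1.13 and -0.56 for Pdk2. In both subsets Pdk2 was also lower in EL4 TB mice (-1.45 ± 0.15 and -0.87 ± 0.14, adjusted p = 0.00468 and 0.0159), at 2.55 and 2.62 CPM in tCD115- against 6.92 and 7.17 CPM in nCD115- libraries.

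Of 19 other glycogen genes, tCD115- cells had 5 at higher and 6 at lower levels by the same test, and nCD115- cells had 5 and 3. The shares of all genes were 17.7% and 19.9%, and 11.8% and 3.23%. Ppp1r3d, which encodes a glycogen-targeting subunit of protein phosphatase-1, had log2 fold changes of 1.12 and 0.93. Stbd1, which encodes a glycogen-binding protein, was lower, with -1.28 and -1.12. Ppp1r3d and Stbd1 also differed by host in both subsets, at 0.83 and 0.64 for Ppp1r3d and -1.22 and -1.06 for Stbd1. Among 8 further pentose phosphate genes, Pgp, a phosphatase gene, had 1.10 and 0.87, and among 4 gluconeogenesis genes Fbp1 was at 6.28 and 2.67 CPM in tCD115- against 0.182 and 0.0825 CPM in tCD115+ libraries (5.01 ± 0.57, adjusted p = 0.0007, edgeR) while Pck2 had -0.62 and -0.37.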

How the data were processed

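RNA-seq was done on 8 libraries of sorted mouse BM cells, prepared with a stranded mRNA kit. The submitters' processing notes list HISAT2 2.0.5, StringTie 1.3.3b and the build mm10 without roles. The authors deposited whole-number read counts per gene and FPKM values per gene and library, the latter used only to compare isoenzymes per length. Their log2 values, group means (12 columns) and comparison columns (fold changes and p-values) were not used. Whether counting used strand is a detail that the sources used here do not give. On GENCODE vM21, exons of several of the genes overlap genes on the other strand, by 6.47% of exon bases for Gys1, 11.5% for Gpi1, 13.6% for Pgm2 and G6pdx, 16.2% for Pdha1 and 17.9% for Rpe, and reads could then be shared.

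Counts were filtered with filterByExpr, scaled by TMM and fitted with edgeR 4.0.16 in R 4.3.3 (robust quasi-likelihood, 1 mean per group, 4 residual degrees of freedom), with Benjamini-Hochberg adjustment over 13211 genes. Calls used adjusted p under 0.05, with and without a 2-fold limit. Alternatives were DESeq2 1.42.0, limma-voom (limma 3.58.1), other scalings and filters, a replicate block, fits of 4 libraries and each library left out. Scripts were tested on simulated data. Nothing in the labels says which animals gave a library, so p-values measure only the spread between these samples. Every one of the 38 genes is named. Values per library are given for genes called at 2-fold and for their isoenzymes, and from each other list up to 3 called genes per comparison with a mean of at least 1 CPM. 1 gene that this rule names is not reported here. The genes and lists were chosen with earlier results of these data known. Figures were drawn with matplotlib 3.10.9.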

Additional observations from a re-analysis of the deposited data

How the results depend on the processing

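Of 40 pairs of a gene and a comparison followed through 16 alternatives, 12 kept their call in all, 28 lost it in at least 1 and none changed direction. The call followed was adjusted p under 0.05 with the 2-fold limit in the subset comparisons, and adjusted p under 0.05 alone in the host comparisons. Subset calls under 2-fold were not followed, so these counts cannot rank the 2 kinds of comparison by stability. The 12 were Slc2a3, Hk3, Pfkfb3, Gys1 and Gbe1 in both subset comparisons and Gpi1 and Pgm2 in EL4 TB mice. For tCD115- over tCD115+, the 27 calls at adjusted p under 0.05 ranged from 17 to 31 when 1 library was left out. For nCD115- over nCD115+, the 20 calls ranged from 9 to 30. For tCD115- over nCD115-, the 11 calls became 18 with DESeq2, 0 with only the 4 libraries compared and 0 to 28 when 1 library was left out, and the 1 call at 2-fold became 0 with no filter, with only the 4 libraries and with the replicate block, and 0 to 2 when 1 library was left out. For tCD115+ over nCD115+, the 13 calls became 21 with only the 4 libraries and 0 to 18 when 1 library was left out, and the 0 calls at 2-fold became 1 with limma-voom, 1 with the replicate block and 0 to 1 when 1 library was left out. The 0 interaction calls became 1 with DESeq2 and 0 to 2 when 1 library was left out. The cause was not tested. Over all genes, calls at adjusted p under 0.05 numbered 4967, 1988, 1280, 1359 and 0 for tCD115- over tCD115+, nCD115- over nCD115+, tCD115- over nCD115-, tCD115+ over nCD115+ and the interaction. With only the 4 libraries compared the first 4 were 2756, 3583, 40 and 3790. At 2-fold, tCD115- over nCD115- had 434 calls, and 36 with only the 4 libraries, and the interaction had 68 with DESeq2. DESeq2 gave 2616 for the third, 2202 for the fourth and 89 for the interaction, which had 4 with no filter. With 1 library left out they ranged from 2351 to 6025, 694 to 4071, 45 to 4304, 44 to 3288 and 0 to 635. Same-numbered libraries did not deviate together (r of -0.10 to 0.08 between groups). This cannot tell whether they shared mice or a day, since other differences between libraries could hide it. A replicate block gave 10, 7, 0 and 1 of the 38 genes at 2-fold. Each group held 2 libraries, so a fit without 1 of them had a single library in that group.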

Other observations

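Genes that regulate glycolysis, and hypoxia-responsive genes outside it, were followed from 2 further lists. Among 19 regulators tested, tCD115- against tCD115+ cells gave 5 as higher and 5 as lower, and nCD115- against nCD115+ cells gave 4 as higher, by edgeR's test at adjusted p under 0.05. Of all genes, 17.7% were higher and 19.9% lower in the first comparison, and 11.8% were higher in the second. Mxd1, which encodes a partner of MAX that opposes MYC, was at 254 and 170 CPM in tCD115- against 31.5 and 25.3 CPM in tCD115+ libraries, and at 101 and 129 CPM in nCD115- libraries, set against 26.6 and 29.0 CPM in nCD115+ libraries (log2 fold changes of 2.90 ± 0.22 and 2.05 ± 0.21, adjusted p = 0.000107 and 0.000677, edgeR). Egln3, a prolyl hydroxylase gene of the HIF pathway, had 2.93 and 2.32, and Epas1, which encodes HIF-2α, -0.95 in EL4 TB mice. Hif1a was at 109 and 111 CPM in tCD115- against 155 and 138 CPM in tCD115+ libraries (-0.41 ± 0.08, adjusted p = 0.00759, edgeR), and at 104 and 102 CPM in nCD115- libraries, set against 102 and 110 CPM in nCD115+ libraries. In CD115+ cells Hif1a was higher in EL4 TB than in naive mice (0.46 ± 0.08, adjusted p = 0.0208).

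Txnip, which encodes an inhibitor of glucose uptake, was lower in EL4 TB mice in both subsets. It was at 294 and 343 CPM in tCD115- against 708 and 544 CPM in nCD115- libraries, and at 449 and 403 CPM in tCD115+ against 798 and 730 CPM in nCD115+ libraries (-0.98 ± 0.14 and -0.84 ± 0.14, adjusted p = 0.0126 and 0.0178, edgeR). All EL4 TB libraries lay below all naive libraries. Its relative Arrdc4 had -0.84 ± 0.20 in CD115- cells (adjusted p = 0.0419).

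Of 14 hypoxia-responsive genes outside glycolysis, tCD115- cells had 3 at higher and 4 at lower levels than tCD115+ cells. Of all genes, 17.7% were called higher and 19.9% lower there. Vegfa, an endothelial growth factor gene, was at 64.6 and 46.9 CPM in tCD115- against 0.768 and 0.592 CPM in tCD115+ libraries, and at 33.1 and 44.1 CPM in nCD115- libraries, set against 0.889 and 0.726 CPM in nCD115+ libraries (6.34 ± 0.26 and 5.58 ± 0.25, adjusted p = 1.66e-05 and 2.34e-05, edgeR). Ero1l, an oxidase gene of the endoplasmic reticulum, had 1.79 and 1.65, and Mxi1, a relative of Mxd1, 1.13 and 1.00. In both subsets Mif was higher in EL4 TB mice (0.88 ± 0.18 and 0.85 ± 0.18, adjusted p = 0.0299 and 0.0302). The median over the 14 genes was -0.32 for tCD115- over tCD115+ and -0.12 for nCD115- over nCD115+. In the latter the 3 genes called by edgeR were all higher, as were 11.8% of all genes.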
